A study of Homo sapiens with 9 samples.

Results

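The MYC and MAX network is a set of transcription factors with a basic helix-loop-helix leucine zipper that share dimer partners and compete for the same DNA element, the E-box. The 9 genes examined here are MYC, MAX, MLX, MXD1, MXD3, MXD4, MXI1, MNT and MGA. They were taken by name from a list set for the purpose, through their Ensembl identifiers, and all 9 were present among the 57500 genes counted in every library. All 9 also passed the filter on low counts, which left 16672 genes for testing.

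As background, MYC binds DNA as a dimer with MAX and activates genes of growth, ribosome production and metabolism. The MXD proteins and MNT take MAX as their partner too and recruit the SIN3 histone deacetylase corepressor, so that they oppose MYC at shared sites, and MGA brings MAX into a polycomb complex. MLX is a relative of MAX that pairs with some MXD proteins, with MNT and with the glucose-responsive Mondo proteins. In B cells MYC is known for its part in germinal centre reactions and for its activation in Burkitt lymphoma.

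All groups were untreated BJAB cells, an established line of human B lymphocytes labelled as a Burkitt lymphoma tumour. The gene TNFRSF13B encodes TACI, through which B cells respond to the cytokines BAFF and APRIL, and splicing yields isoforms that differ in length. Polyadenylated RNA of sorted cells was sequenced from 3 libraries of cells with a stable short TACI construct (TACI short), 3 of cells with a stable long TACI construct (TACI long) and 3 of the BJAB line with no construct in its label (parental). The comparisons describe how the transcriptome of untreated cells differs between each construct line and parental cells, and between the lines. The sources used here name neither the promoter of the constructs nor clones, and no group with an empty vector is among the 9 libraries.

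Total counts ran from 40322136 to 50079203 per library. TNFRSF13B stood at 2964, 2965 and 2655 CPM (the count scaled to the library total) in TACI short, at 691, 704 and 738 CPM in TACI long and at 28.8, 15.2 and 14.6 CPM in parental cells, in the order of the labels. The isoform and the amount of its RNA differ together between the lines and cannot be told apart. In TACI short replicates 2 and 3, 32882 and 32209 genes had a count, whereas the other 7 libraries had between 24307 and 25938. In these 2 libraries the summed CPM of 10 myeloid markers was 125 and 121, against 28.7 in TACI short replicate 1, 15.3 to 28.9 in TACI long and 11.5 to 21.8 in parental cells, while S100A8 was at 0 in every library. The 6 B-cell markers summed to 2963 to 3098 CPM in TACI short, 3275 to 3313 in TACI long and 3681 to 3807 in parental cells. Of 5 epithelial and fibroblast markers, COL1A1 had 3.24 to 10.99 CPM in TACI short and 1.5 to 2.615 in parental cells. COL1A2 had 0.653 to 4.11 and 0.913 to 1.44 CPM. EPCAM was lower in TACI short (73.4 to 76.7 against 95 to 96.9 CPM), and KRT8 and KRT18 were near 0. The 6 T and NK cell markers summed to 2.816 to 3.621 CPM in TACI short and 3.054 to 3.174 in parental cells. Nothing in the labels says that the replicates came from separate cultures, so p-values measure the spread between these libraries only, which may be technical.

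MYC was by far the most abundant transcript of the network, and its place was the same in the 3 groups. Per length, as CPM divided by exon length in kilobases, MYC reached 72.5 ± 1.5 in TACI short, 61.9 ± 2.3 in TACI long and 81.6 ± 2.1 in parental cells (SD, n = 3 each). On the same scale the level of MAX was 12.4 ± 0.38 in TACI short, 18.8 ± 0.36 in TACI long and 18.7 ± 0.32 in parental cells. In parental cells the order of levels was MYC, MAX, MLX, MXD4, MGA, MXD3, MNT, MXD1 and MXI1, and the ranges over libraries overlapped only between the neighbours MGA and MXD3. In TACI short cells MXI1 stood above MGA, MNT and MXD1, and MLX and MAX overlapped. In TACI long cells MXD4 stood beside MAX with overlapping ranges, and MXI1 remained last.

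Against parental cells, 7 of the 9 genes were called in TACI short, 2 higher and 5 lower, and 7 were called in TACI long, 3 higher and 4 lower. Between the lines, 7 were called in TACI short against TACI long, 3 higher and 4 lower. Of all tested genes, 31.5% were called higher and 31.1% lower in TACI short, 25.2% higher and 25.9% lower in TACI long, and 35.2% higher and 33.6% lower between the lines. A gene was called at an adjusted p under 0.05 in edgeR's quasi-likelihood test over all tested genes, and 62.6% of all tested genes were called in TACI short, 51.1% in TACI long and 68.8% between the lines. With so much of the transcriptome called, the counts of network genes say little by themselves. Against a minimum fold change of 1.2, 4 of the 9 were called in TACI short (MAX and MXD4 lower, MXD3 and MXI1 higher), where 37.1% of all genes were, and 4 in TACI long (MXD4 higher, MYC, MXI1 and MNT lower), where 24.9% of all genes were. Between the lines 6 were called on that footing, where 47.2% of all genes were. The CPM of the groups did not overlap for 7 of the 9 in TACI short against parental cells (66.4% of all tested genes), for 7 in TACI long against parental cells (60.7%) and for 8 between the lines (71.6%). The comparisons with parental cells share the same 3 parental libraries.

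**Figure D1:**
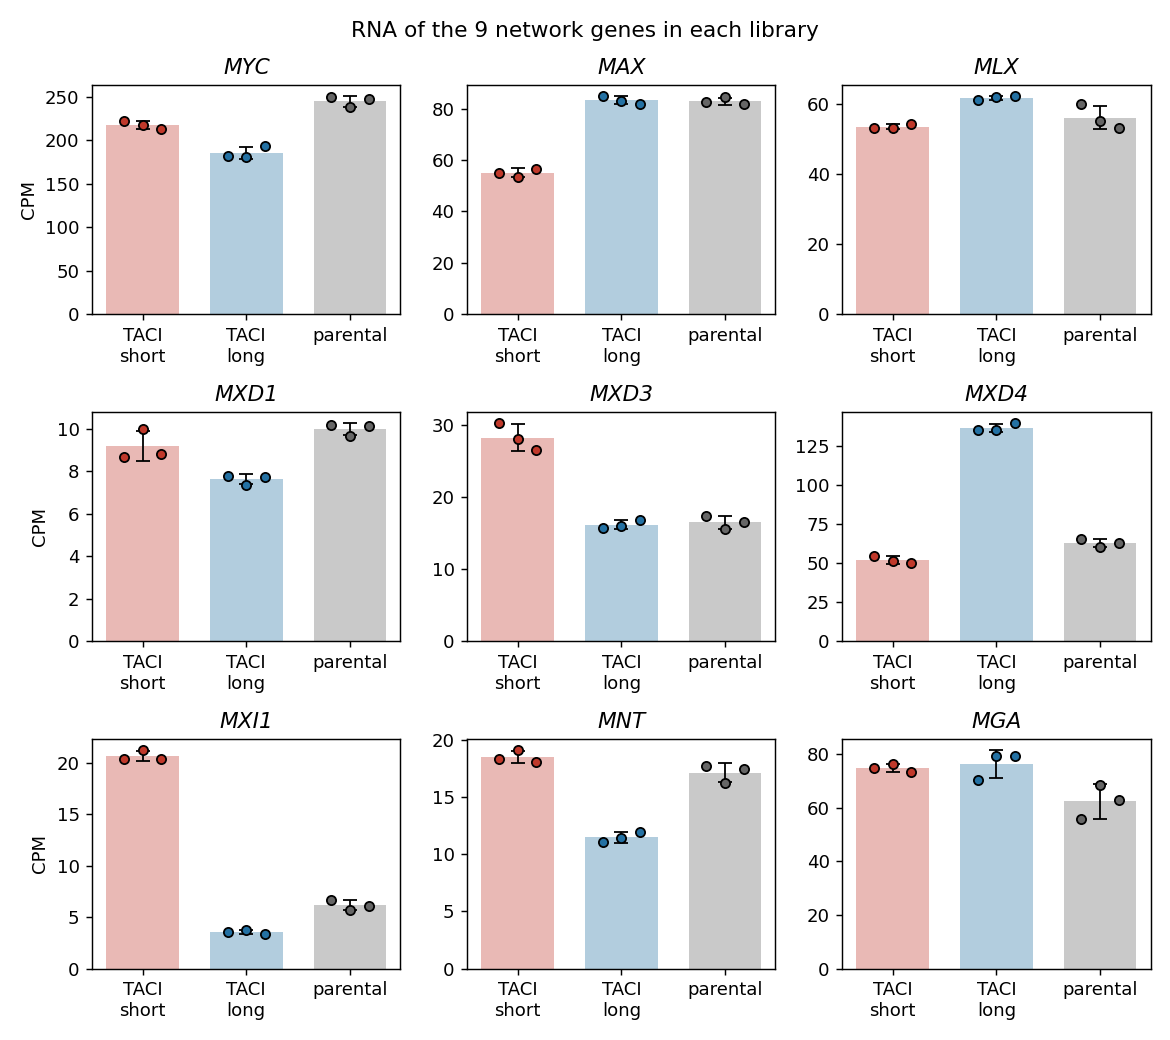
CPM of each network gene in the 9 libraries; points are libraries, bars are group means and error bars are SD (n = 3), with an axis of its own for each gene. MXD4 is high in the 3 TACI long libraries (134.8 to 139.5 CPM), MXI1 in the 3 TACI short libraries (20.4 to 21.2 CPM), and MAX is low in TACI short (53.3 to 56.7 CPM).

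MYC, the activator of the network, had 222, 217.5 and 213.2 CPM in TACI short, 182.5, 180.9 and 193.5 CPM in TACI long and 249.6, 237.9 and 247.4 CPM in parental cells. The 3 groups did not overlap, and parental cells were highest. MYC fell by 0.30 ± 0.04 on the log2 scale in TACI short (SE; adjusted p = 3.61e-06) and by 0.40 ± 0.04 in TACI long (adjusted p = 8.17e-08), in 3 of 3 libraries each. The SE of a fold change is approximate throughout and comes from the F statistic of the fit. In a bulk sample, fewer cells with a transcript and less of it per cell cannot be told apart. Falls of at least this size were seen in 24.2% of all tested genes in TACI short and 19.7% in TACI long. In the alternatives of the processing the change of MYC lay between -0.35 and -0.17 in TACI short and between -0.43 and -0.36 in TACI long. In edgeR's test against a minimum fold change of 1.2, MYC was not called in TACI short (adjusted p = 0.165). Between the lines the log2 fold change of MYC was 0.10 ± 0.04, TACI short over TACI long, at adjusted p = 0.0547. It passed the threshold in 6 of the 19 alternatives, among them upper-quartile factors (0.19, adjusted p = 0.000137), library totals (0.23, adjusted p = 1.32e-05), the filter of 1 CPM in 3 libraries (0.14, adjusted p = 0.00166) and the fit without TACI short replicate 2 (0.12, adjusted p = 0.0218), and was as low as 0.05 without TACI short replicate 1.

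MAX, the partner that MYC shares with the MXD proteins, was lower in TACI short and not in TACI long. It had 55.2, 53.3 and 56.7 CPM in TACI short, 85.0, 82.8 and 81.9 CPM in TACI long and 82.4, 84.5 and 81.8 CPM in parental cells. All TACI short libraries lay below the other 6, which overlapped among themselves. MAX fell by 0.72 ± 0.05 on the log2 scale in TACI short (adjusted p = 3.01e-12), where only 5.94% of tested genes fell as far, and its log2 fold change in TACI long was 0.01 ± 0.04 (adjusted p = 0.920). The difference between TACI short and TACI long was -0.73 ± 0.05 on the log2 scale (adjusted p = 1.51e-12). In the alternatives of the processing the fall of MAX in TACI short lay between -0.75 and -0.59.

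The ratio of MYC to MAX RNA, taken per length within a library, moved in opposite directions in the lines. It was 5.94, 6.02 and 5.55 in TACI short, 3.17, 3.23 and 3.49 in TACI long and 4.47, 4.16 and 4.46 in parental cells. TACI short lay above and TACI long below the parental range. This ratio does not depend on library size or on scaling factors.

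MXD4, an MXD protein and in parental cells the most abundant of that family, showed the greatest change of the network in TACI long. It had 54.9, 51.6 and 49.9 CPM in TACI short, 135.1, 134.8 and 139.5 CPM in TACI long and 65.3, 60.6 and 62.7 CPM in parental cells. The groups did not overlap, with TACI long highest and TACI short lowest. MXD4 rose by 1.12 ± 0.05 on the log2 scale in TACI long, a 2.17-fold change (adjusted p = 8.53e-15), and 2.93% of tested genes rose at least as much. In TACI short it fell by 0.40 ± 0.05 (adjusted p = 3.98e-07), and TACI short against TACI long gave -1.52 ± 0.05 (adjusted p = 1.42e-17). No other gene in the deposited annotation shares exon bases with MXD4.

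MXI1, the MXD-family protein also called MAX interactor, moved the other way. It had 20.4, 21.2 and 20.4 CPM in TACI short, 3.55, 3.71 and 3.34 CPM in TACI long and 6.65, 5.74 and 6.13 CPM in parental cells. Again no groups overlapped, and TACI short was highest and TACI long lowest. The change in TACI short was 3.06-fold (log2 1.61 ± 0.08, adjusted p = 2.64e-14), and 8.37% of tested genes rose at least as much. In TACI long MXI1 fell by 0.81 ± 0.08 on the log2 scale (adjusted p = 2.81e-08). TACI short exceeded TACI long 5.34-fold (adjusted p = 1.94e-17). TACI short replicate 1, with few myeloid transcripts, had the same MXI1 level as replicates 2 and 3, and against parental cells its log2 fold change was 1.63 with replicate 1 as the lone TACI short library.

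MXD3, an MXD protein known for its expression in proliferating cells, was higher in TACI short alone. It had 30.2, 28.0 and 26.4 CPM in TACI short, 15.6, 15.9 and 16.9 CPM in TACI long and 17.4, 15.6 and 16.5 CPM in parental cells. TACI short lay above the other groups, which overlapped. MXD3 rose by 0.64 ± 0.07 on the log2 scale in TACI short (adjusted p = 9.81e-09), and its change in TACI long was -0.03 ± 0.07 (adjusted p = 0.750). Its difference between TACI short and TACI long was 0.68 ± 0.07 (adjusted p = 3.31e-09). Of its exon bases, 40.4% are shared with RAB24 or PRELID1, so its counts are uncertain. RAB24, on the same strand, had a log2 fold change of 0.16 ± 0.08 in TACI short (adjusted p = 0.100), -0.87 ± 0.09 in TACI long (adjusted p = 1.76e-08) and 1.03 ± 0.09 in TACI short against TACI long (adjusted p = 3.83e-10), where it moved in the direction of MXD3 and further. PRELID1, on the opposite strand, had -0.62 ± 0.05 in TACI short (adjusted p = 1.43e-10), -0.08 ± 0.05 in TACI long (adjusted p = 0.182) and -0.54 ± 0.05 between the lines (adjusted p = 9.85e-10). Their part in the MXD3 result was not tested.

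MXD1, an MXD protein known to rise when myeloid and other cells differentiate, had 8.69, 9.97 and 8.83 CPM in TACI short, 7.78, 7.35 and 7.72 CPM in TACI long and 10.2, 9.67 and 10.1 CPM in parental cells. TACI long lay below the parental libraries, and TACI short overlapped with them. MXD1 fell by 0.39 ± 0.08 on the log2 scale in TACI long (adjusted p = 0.000192). Its fall by 0.26 ± 0.08 in TACI short (adjusted p = 0.00625) did not pass with upper-quartile factors (adjusted p = 0.0504) or with library totals (adjusted p = 0.147). It was the weakest MXD transcript of TACI short cells per length.

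**Figure D2:**
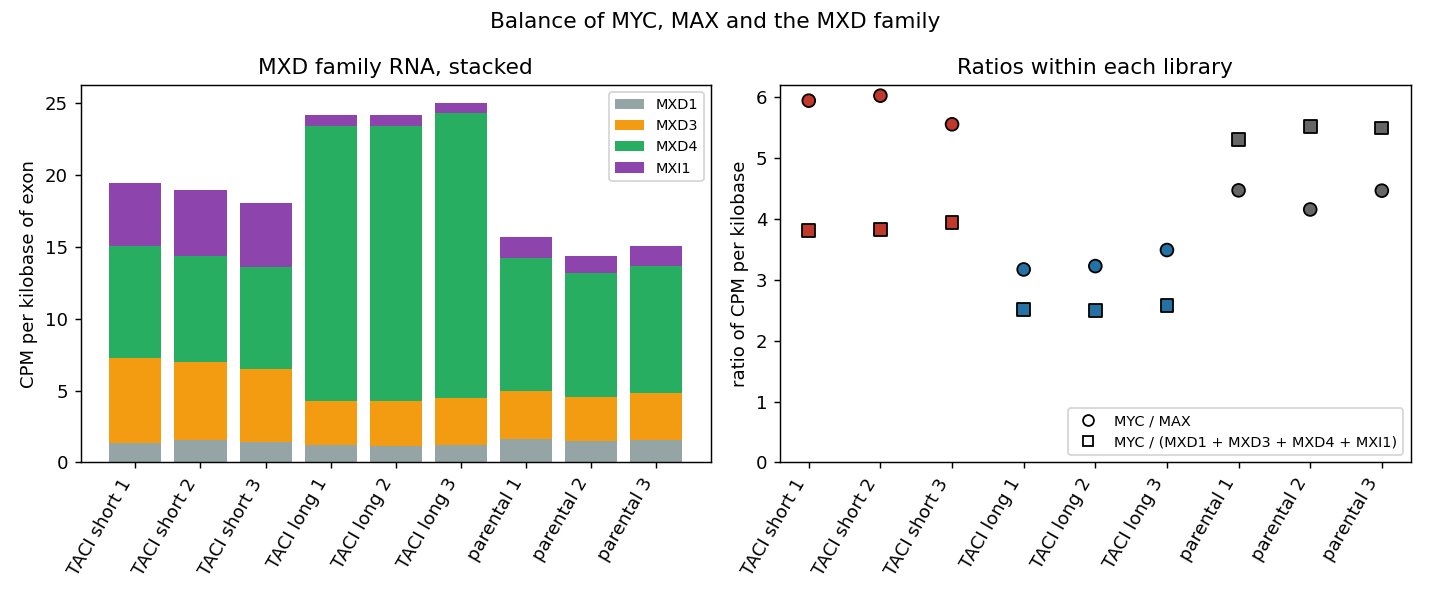
Left, CPM per kilobase of exon of MXD1, MXD3, MXD4 and MXI1, stacked for each library; right, the ratio of MYC to MAX (circles) and of MYC to the sum of the 4 MXD genes (squares) in each library, from CPM per kilobase. The MXD sum is highest in TACI long (24.1 to 25), where it is mostly MXD4, and MXI1 and MXD3 take up a greater part of it in TACI short.

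The makeup of the MXD family therefore differed between the lines. Per length, MXD4 made up 40, 38.6 and 39.2% of the summed level of MXD1, MXD3, MXD4 and MXI1 in the TACI short libraries, 79.2, 79.1 and 79.1% in TACI long and 59.1, 59.7 and 59.2% in parental cells. MXI1 made up 22.8 to 24.6% in TACI short, 2.9 to 3.33% in TACI long and 8.67 to 9.21% in parental cells. The sum itself was 18.8 ± 0.73 in TACI short, 24.4 ± 0.47 in TACI long (SD, n = 3 each) and between 14.4 and 15.7 CPM per kilobase in parental cells, with no overlap between groups. MYC RNA exceeded the sum 3.81- to 3.95-fold in TACI short, 2.5- to 2.58-fold in TACI long and 5.31- to 5.51-fold in parental cells. MXD3, which shares 40.4% of its exon bases with other genes and has uncertain counts, made up 28.5 to 30.2% of the sum in TACI short. Its part was 12.6 to 13.1% in TACI long and 21.1 to 21.5% in parental cells. These sums and shares over chosen genes are descriptions and carry no test.

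MNT, the broadly expressed antagonist of MYC, was lower in TACI long. It had 18.4, 19.1 and 18.1 CPM in TACI short, 11.04, 11.4 and 11.98 CPM in TACI long and 17.7, 16.3 and 17.5 CPM in parental cells. All TACI long libraries lay below the other 6, and in CPM the TACI short libraries lay just above the parental ones. MNT fell by 0.58 ± 0.06 on the log2 scale in TACI long (adjusted p = 5.38e-08), and TACI short against TACI long gave 0.56 ± 0.06 (adjusted p = 4.23e-08). In TACI short against parental cells its log2 fold change was -0.02 ± 0.06 (adjusted p = 0.783), with a sign that depended on the scaling (0.11 with library totals).

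MLX, the partner of the Mondo proteins, changed little. It had 53.2, 53.2 and 54.4 CPM in TACI short, 61.2, 62.1 and 62.3 CPM in TACI long and 60.04, 55.3 and 53.4 CPM in parental cells. The parental libraries overlapped with TACI short and lay below TACI long. Its log2 fold change was -0.20 ± 0.05 in TACI short (adjusted p = 0.00136), 0.14 ± 0.05 in TACI long (adjusted p = 0.0223) and -0.34 ± 0.05 between TACI short and TACI long (adjusted p = 2.23e-06). The fall in TACI short did not pass with library totals (-0.07, adjusted p = 0.161), and the rise in TACI long did not pass without parental replicate 2 or 3 or TACI long replicate 1 or 3 (log2 fold changes from 0.10 to 0.14, adjusted p from 0.0699 to 0.212). MLX shares 18.1% of its exon bases with PSMC3IP on the opposite strand, which the library kit does not resolve.

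MGA, the giant T-box protein that can also pair with MAX, had 75.0, 76.2 and 73.1 CPM in TACI short, 70.3, 79.3 and 79.3 CPM in TACI long and 55.7, 68.6 and 62.9 CPM in parental cells. Both lines lay above the parental libraries, which were widely spread. MGA rose by 0.29 ± 0.06 on the log2 scale in TACI long (adjusted p = 0.001). In TACI short its log2 fold change was 0.13 ± 0.06 (adjusted p = 0.0769), and it was called in 5 of the 19 alternatives. These were upper-quartile factors (0.21, adjusted p = 0.0133), library totals (0.26, adjusted p = 0.0114), the filter of 1 CPM in 3 libraries (0.17, adjusted p = 0.0320), the replicate block (0.14, adjusted p = 0.0480) and the fit without parental replicate 2 (0.18, adjusted p = 0.0197). TACI short against TACI long gave -0.16 ± 0.06 (adjusted p = 0.0332), a difference that 10 of the 19 alternatives did not call.

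**Figure D3:**
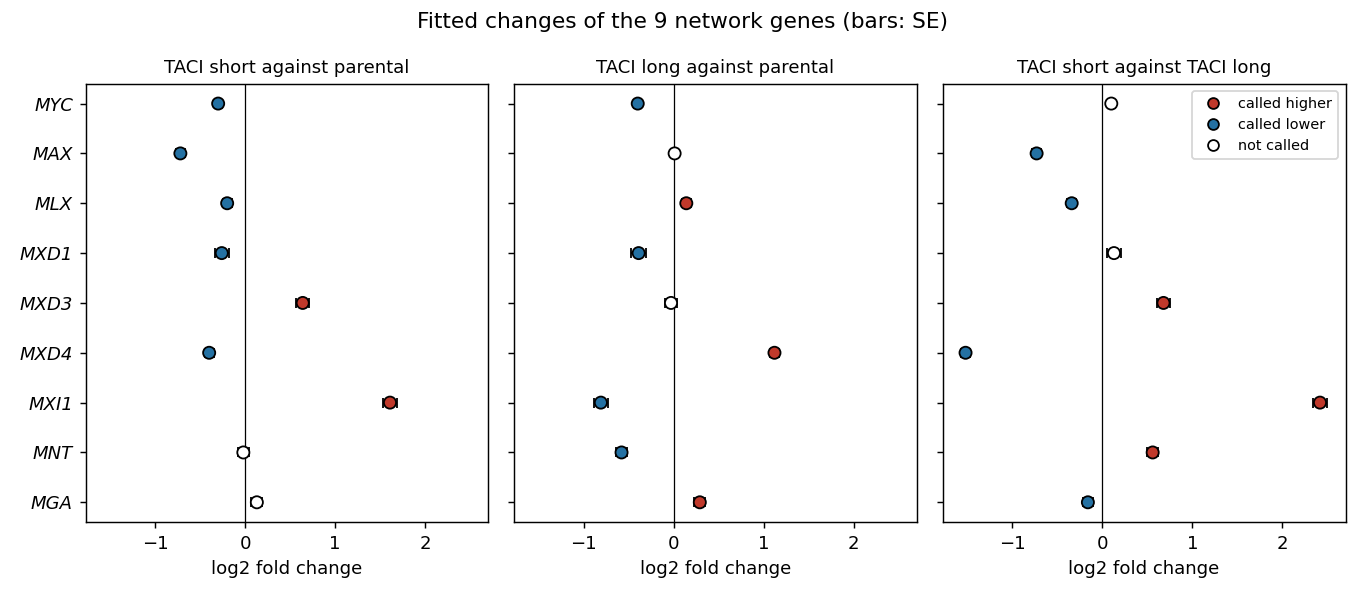
Log2 fold changes of the 9 network genes with their SE (horizontal bars) from the edgeR fit, in the 3 comparisons; red and blue points were called higher and lower, white points were not called. MXD4 and MXI1 have opposite signs in the 2 lines, and their differences between TACI short and TACI long are -1.52 and 2.42.

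The promoters of some network genes carry the E-box that MYC and MAX dimers bind. The letters CACGTG, which read the same on both strands, were searched in RefSeq promoter windows of 300 bases (GRCh38.p14, from 250 bases before to 50 after a start) for 8 of the 9 genes. MYC was not searched. The letters were found in 3 of 13 windows, those of MXD4, MNT and MLX, against 7.26% of all 35116 windows. The stretches around them are shown because they belong to network genes that were called in TACI long, MXD4 with the greatest rise among them. MXD1, MXI1 and MGA were also called in TACI long, and their windows did not hold the letters. They run 5′ to 3′ on the strand of the gene, with the E-box in capitals, each ending before the start of the gene in the deposited annotation.
MXD4, chr4:2262295-2262359, minus strand: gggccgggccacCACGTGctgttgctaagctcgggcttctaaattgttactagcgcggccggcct
MNT, chr17:2401198-2401303, minus strand: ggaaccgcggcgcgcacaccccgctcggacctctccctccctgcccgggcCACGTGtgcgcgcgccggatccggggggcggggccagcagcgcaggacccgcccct
MLX, chr17:42567000-42567067, plus strand: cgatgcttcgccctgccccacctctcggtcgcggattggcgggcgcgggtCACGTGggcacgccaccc
The E-box lies 48 bases from the gene start for MXD4, 130 bases for MNT and 13 bases for MLX. These 3 genes did not move together: in TACI long MXD4 and MLX were higher and MNT lower. A match describes these letters and says nothing of which factor is bound.

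In the deposited files, on build hg38, MXD4 (ENSG00000123933) spans chromosome 4 from 2247432 to 2262294 on the minus strand, MXI1 (ENSG00000119950) chromosome 10 from 110207605 to 110287365 on the plus strand and MAX (ENSG00000125952) chromosome 14 from 65006174 to 65102695 on the minus strand. Reads were counted over all exons, so promoters and isoforms of one gene, of which MXI1 and MAX have several, are summed.

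Other genes of the wider network were also measured. MLXIP, which encodes the Mondo partner of MLX named MondoA, fell by 0.46 ± 0.05 on the log2 scale in TACI short (adjusted p = 2.55e-08) and by 0.28 ± 0.05 in TACI long (adjusted p = 4.98e-05). TXNIP, a glucose-responsive target of MondoA and MLX, rose by 0.84 ± 0.10 in TACI short (adjusted p = 0.00013) and by 0.88 ± 0.10 in TACI long (adjusted p = 0.000139), with 58.8 ± 9.92 CPM in TACI short, 54.9 ± 3.23 in TACI long and 29.95 ± 1.34 in parental cells (SD, n = 3 each). Its relative ARRDC4 rose 4.32-fold in TACI short and 2.68-fold in TACI long, at low levels of at most 3.42 CPM. MLXIPL, which encodes ChREBP, was not called in TACI short (log2 fold change 1.78 ± 0.87, adjusted p = 0.121) or in TACI long (0.22 ± 0.93, adjusted p = 0.877).

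MYCL, a paralogue of MYC, rose 1.84-fold in TACI short (adjusted p = 0.000142), to 4.08 ± 0.602 CPM in TACI short, against 2.02 ± 0.496 CPM in parental cells, and was not called in TACI long (log2 fold change -0.19, adjusted p = 0.412). MYCN had at most 0.0459 CPM in any library and was not tested. PVT1, the long noncoding RNA beside MYC, fell by 0.85 ± 0.06 on the log2 scale in TACI long (adjusted p = 1.01e-10), where MYC was lowest, and had 0.06 ± 0.06 in TACI short (adjusted p = 0.389). MYCBP, which encodes a MYC-binding protein, rose by 0.32 ± 0.05 in TACI long (adjusted p = 2.29e-05) and was not called in TACI short (-0.04, adjusted p = 0.542), and MYCBP2 was called in neither (0.09, adjusted p = 0.241, and -0.14, adjusted p = 0.0729).

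Genes of the nucleolus, where ribosomes are made, are known targets that MYC activates, and most of those listed were lower in both lines. All 20 nucleolar genes of the list fell in TACI short, where 31.1% of all tested genes did, and 16 of 20 fell in TACI long, where 25.9% did. None rose in either line. This list and those below were chosen with earlier results of these data known, so their counts are descriptions. Their median log2 fold change was -0.81 in TACI short, against 0.03 for all tested genes, and -0.30 in TACI long, against -0.00. The fit without TACI short replicates 2 and 3 sets a lone TACI short library against parental cells and assumes that it varies like the other groups. Its calls are therefore not counted here. In TACI short, RRP12 and NOP16, both needed for ribosome assembly, fell by 1.11 ± 0.04 each (adjusted p = 5.29e-16 and adjusted p = 1.21e-15), WDR43 by 0.94 ± 0.04 (adjusted p = 1.93e-14) and the processing factor RRP9 by 1.06 ± 0.05 (adjusted p = 2.08e-14). In TACI long, MYBBP1A fell by 0.66 ± 0.04 (adjusted p = 1.64e-11), GNL3, which encodes nucleostemin, by 0.49 ± 0.04 (adjusted p = 1.69e-09), NOP16 by 0.45 ± 0.04 (adjusted p = 8.5e-09) and PPAN by 0.55 ± 0.06 (adjusted p = 2.91e-08). Between the lines, 18 of the 20 were called lower in TACI short than in TACI long, where 33.6% of all genes were called lower. With upper-quartile factors, and also with library totals, 17 were lower and 1 higher. Of all tested genes, 4770 were lower and 6820 higher with upper-quartile factors, and 4345 lower and 7216 higher with library totals.

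Targets of metabolism and translation went both ways, more of them down. Of 22 tested genes, 16 fell and 3 rose in TACI short (median -0.36), where 31.1% of all tested genes fell and 31.5% rose, and 10 fell and 2 rose in TACI long (median -0.13), where 25.9% fell and 25.2% rose. In TACI short, the spermidine synthase gene SRM fell by 0.95 ± 0.05 on the log2 scale (adjusted p = 3.07e-14), UMPS, of pyrimidine synthesis, by 1.03 ± 0.05 (adjusted p = 6.48e-15), the transferrin receptor gene TFRC by 0.93 ± 0.04 (adjusted p = 3.69e-15) and APEX1, which encodes a DNA repair nuclease, by 0.80 ± 0.04 (adjusted p = 1.79e-13). The 3 that rose, picked out after their values were seen, were MTHFD2 of the folate cycle (0.77 ± 0.04, adjusted p = 3.41e-13), TERT (0.72 ± 0.16, adjusted p = 0.000449) and IMPDH2 (0.26 ± 0.04, adjusted p = 8.93e-06). In TACI long TFRC fell by 0.79 ± 0.04 (adjusted p = 8.65e-14), and LDHA, of glycolysis, by 0.41 ± 0.05 (adjusted p = 7.36e-08), whereas the 2 that rose, picked out in the same way, were TYMS (0.20 ± 0.05, adjusted p = 0.00112) and UMPS (0.15 ± 0.04, adjusted p = 0.00787). UMPS thus had opposite signs in the lines, with -1.18 ± 0.05 between TACI short and TACI long (adjusted p = 2.5e-16).

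Genes that MYC is known to repress separated the lines. In TACI short 8 of 11 tested genes rose and none fell (median 0.89), where 31.5% of all tested genes rose, and in TACI long 6 fell and 1 rose (median -0.39), where 25.9% fell. CDKN1B, which encodes the cell cycle inhibitor p27, had 57.0, 56.3 and 56.6 CPM in TACI short, 13.2, 13.9 and 14.0 CPM in TACI long and 27.1, 27.9 and 26.7 CPM in parental cells, with no overlap. It rose by 0.93 ± 0.05 on the log2 scale in TACI short (adjusted p = 8.89e-14) and fell by 0.99 ± 0.05 in TACI long (adjusted p = 1.54e-13). NDRG1, a stress-responsive gene, rose 9.69-fold in TACI short (adjusted p = 1.28e-15) and fell by 0.86 ± 0.12 in TACI long (adjusted p = 5.03e-06). GADD45A and GADD45B, growth arrest genes, rose 1.85-fold (adjusted p = 4.43e-13) and 1.65-fold (adjusted p = 1.81e-08) in TACI short. KLF6, which encodes a transcription factor, fell by 0.75 ± 0.10 in TACI long (adjusted p = 4.2e-06), and HBP1, which encodes a repressor of the cell cycle, fell by 0.58 ± 0.08 in TACI long (adjusted p = 8.1e-07).

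For part of this list the TACI short libraries were not alike. CDKN1A, which encodes the inhibitor p21, had 14.7 CPM in TACI short replicate 1 and 67.8 and 63.4 CPM in replicates 2 and 3, against 11.7 to 16.8 CPM in parental cells, and NDRG2 had 1.44, 6.2 and 5.59 CPM in TACI short, against 0.689 to 0.935 CPM in parental cells. CEBPA, not called in TACI short (adjusted p = 0.0762), had 0.2025, 3.026 and 3.175 CPM there, against 0.239 to 0.62 CPM in parental cells. These genes, picked out after their values were seen, were high in the 2 libraries with more myeloid transcripts, whose part in the result was not tested. CDKN1A was called in TACI short (log2 fold change 1.57 ± 0.56, adjusted p = 0.0486) and not with the replicate block (1.46, adjusted p = 0.0916). Without these 2 libraries fewer of the 11 genes were called higher than in the main fit. That fit again holds a lone TACI short library, assumed to vary like the other groups.

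**Figure D4:**
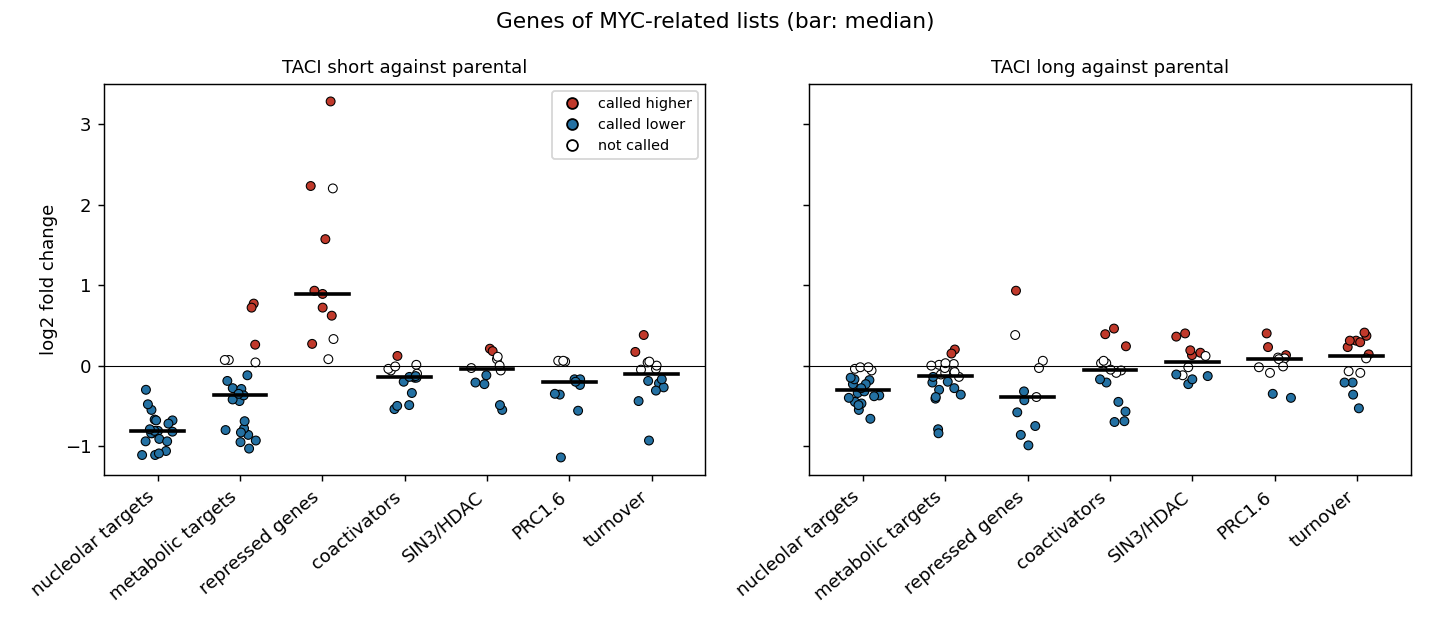
Log2 fold changes of the tested genes in 7 lists of MYC-related genes, in TACI short (left) and TACI long (right) against parental cells; each point is a gene, red and blue were called higher and lower, white were not called, and the black bar is the median. The nucleolar genes lie below 0 in TACI short (median -0.81), and the repressed genes have medians of 0.89 in TACI short and -0.39 in TACI long.

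Of 15 MYC coactivators and partners, 9 fell and 1 rose in TACI short (median -0.14), where 31.1% of all tested genes fell and 31.5% rose. In TACI long 6 fell and 3 rose (median -0.06), where 25.9% of all tested genes fell and 25.2% rose. WDR5, which anchors MYC to chromatin, fell by 0.50 ± 0.04 in TACI short (adjusted p = 5.94e-10), and the acetyltransferase gene KAT2A by 0.54 ± 0.05 (adjusted p = 4.73e-09). The helicase gene RUVBL1 rose by 0.46 ± 0.04 in TACI long (adjusted p = 4.61e-09). With upper-quartile factors 5 were lower and 1 higher in TACI short, against 4330 and 6320 of all tested genes. With library totals 4 were lower and 2 higher, against 3771 and 6873. With TACI short replicate 1 alone fewer were called than in the main fit.

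Of the 12 SIN3 and histone deacetylase genes through which MXD proteins and MNT repress, 5 fell and 2 rose in TACI short (median -0.05), against 31.1% and 31.5% of all tested genes, and 4 fell and 5 rose in TACI long (median 0.05), against 25.9% and 25.2%. The balance in TACI short turned with the scaling, to 4 lower and 4 higher with upper-quartile factors and 3 lower and 6 higher with library totals. That of all tested genes turned as well, from 5179 lower and 5256 higher in the main fit. It became 4330 lower and 6320 higher with upper-quartile factors, and 3771 lower and 6873 higher with library totals. SIN3B fell by 0.55 ± 0.05 in TACI short (adjusted p = 3.67e-09) and by 0.23 ± 0.05 in TACI long (adjusted p = 0.000637), and SAP18, a subunit of the complex, fell by 0.49 ± 0.05 in TACI short (adjusted p = 2.88e-09). HDAC2, a deacetylase gene, rose by 0.36 ± 0.04 in TACI long (adjusted p = 2.83e-07).

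Of 11 genes of the polycomb complex PRC1.6, which holds MGA and MAX, 8 fell and none rose in TACI short (median -0.20), where 31.1% of all tested genes fell and 31.5% rose, whereas 2 fell and 3 rose in TACI long (median 0.08), where 25.9% fell and 25.2% rose. In TACI short 7 were lower and 3 higher with upper-quartile factors, against 4330 and 6320 of all tested genes. With library totals 5 were lower and 3 higher, against 3771 and 6873. L3MBTL2, a core subunit, fell by 1.14 ± 0.05 on the log2 scale in TACI short (adjusted p = 3.37e-15) and by 0.40 ± 0.05 in TACI long (adjusted p = 2.08e-07). E2F6, its DNA-binding partner, fell by 0.56 ± 0.05 in TACI short (adjusted p = 4.65e-09) and rose by 0.40 ± 0.05 in TACI long (adjusted p = 7.4e-07).

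Among 14 genes of MYC protein turnover, 7 fell and 2 rose in TACI short (median -0.11), against 31.1% and 31.5% of all tested genes, and 4 fell and 7 rose in TACI long (median 0.11), against 25.9% and 25.2%. In TACI short 6 were lower and 5 higher with upper-quartile factors, against 4330 and 6320 of all tested genes. With library totals 5 were lower and 5 higher, against 3771 and 6873. The deubiquitinase gene USP36, which stabilises MYC, fell by 0.93 ± 0.04 in TACI short (adjusted p = 7.7e-15) and by 0.53 ± 0.04 in TACI long (adjusted p = 2.19e-10). AURKA, whose kinase is known to protect MYCN from degradation, rose by 0.41 ± 0.04 in TACI long (adjusted p = 2.91e-08), and USP7, another deubiquitinase gene, fell by 0.36 ± 0.04 there (adjusted p = 7.05e-08). MYC protein itself was not measured.

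The genes whose pattern over the 9 libraries was most like that of a network gene were found by the root mean square difference of centred log2 CPM, among 12805 other protein-coding genes. For MYC they included LONP1, a mitochondrial protease gene (0.0318), and NDUFV1, of respiratory complex I (0.0329). For MAX they were EIF1AX (0.0264), EFTUD2 (0.0287) and TMX2 (0.0344). The nearest genes lay farther off for the members that changed most: TMEM50B (0.0562), VASN (0.0652) and ACKR4 (0.0972) for MXD4, and LAT2 (0.105), RETREG1 (0.114) and WIPI1 (0.132) for MXI1. LAT2, an adaptor of lymphocyte signalling, averaged 55.4 CPM in TACI short, 9.69 CPM in TACI long and 17.2 CPM in parental cells. For the rest, the nearest gene was ENO2 for MXD3, ATP6V0A1 for MXD1, KDM5B for MNT, MYO9A for MGA and COPE for MLX.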

How the data were processed

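RNA-seq counts per gene were deposited for 9 libraries. Per the submitters' processing notes, FastQC, STAR 2.4.0h and HTSeq were used with build hg38, whereas the columns of the deposited counts have the layout of featureCounts. The strand setting and annotation release are not given in the sources used here, and Nextera XT libraries, named in the labels, do not keep strand. Gene names came from a GENCODE 29 table.

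CPM used library totals, and values per kilobase the deposited exon length. The test was edgeR 4.0.16 (R 4.3.3): quasi-likelihood with robust fit, TMM factors, all 9 libraries in 1 model with 6 residual degrees of freedom, genes kept at a minimum count of 10 and a total of 15, and Benjamini-Hochberg adjustment over 16672 genes. TMM factors were 1.030 to 1.096 in TACI short and 0.9621 to 0.9796 in the other libraries, so ratios of CPM exceed the fitted changes in TACI short. The procedure was also run on simulated data in which 200 genes were changed. Far more genes were called here, so that run does not test changes this broad. Alternatives included DESeq2 1.42.0 and limma 3.58.1. The labels do not say that replicate numbers pair libraries. The main fit held no replicate block. Deviations from the group means of TACI short and parental libraries with the same number correlated at 0.43, 0.21 and 0.18. Among libraries with different numbers, parental 3 with TACI short 2 reached 0.23 and parental 2 with TACI short 3 reached 0.19. The rest of these were negative, from -0.39 to -0.25. These correlations therefore do not show pairing by number. The block was tried as an alternative, and for this comparison some calls that it changed are given.

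Named were all 9 network genes, every measured gene of the wider network, up to 4 called genes by adjusted p in each other list and comparison, and up to 3 nearest patterns for a member; some genes that the rule takes are not reported here. Members and lists were chosen with earlier results of these data known. No replicates were duplicates.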

Additional observations from a re-analysis of the deposited data

Results flagged for a closer look

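For 3 network genes TACI short and TACI long cells were called in opposite directions against the same parental libraries. Of all tested genes, 62.6% were called in TACI short and 51.1% in TACI long. The share called in opposite directions was not counted, so the number of network genes says little by itself. TACI short against TACI long gave a log2 fold change of -1.52 for MXD4, 2.42 for MXI1 and -0.34 for MLX. This value is the difference of the 2 changes by which the genes were picked, so it is a description and the difference was not tested apart from that choice. Isoform and amount of TNFRSF13B RNA cannot be told apart, and no empty-vector group is among the libraries. For MLX the change in TACI long was small (0.14) and its call was lost in 4 of the fits that leave out a library.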

How the results depend on the processing

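Against a minimum fold change of 1.2, 4 network genes and 6177 of all genes were called in TACI short against parental cells, and 4 and 4154 in TACI long. Of the alternative values of network genes, 467 kept direction and call, 14 gained a call, 23 lost one and 9 changed sign, none of them called. MNT in TACI short was 0.06 with upper-quartile factors, 0.11 with library totals, 0.02 with at least 1 CPM in 3 libraries, 0.00 without replicate 3 and 0.01 without replicates 2 and 3. MAX in TACI long was -0.00 with upper-quartile factors and ranged from -0.01 to 0.03 without single libraries, and MXD3 there from -0.08 to 0.02; the cause was not tested. Library totals shifted the median of all genes by 0.13 in TACI short against either group, and 64.6% of calls against parental cells were then higher, in place of 50.4%, and 62.4% against TACI long, in place of 51.2%. With the replicate number as a block, 8 network genes and 10501 of all genes were called in TACI short against parental cells. MGA was added there (0.14, adjusted p = 0.0480) and no other network gene's call changed. For TACI long, deviations of libraries with the same number correlated at -0.12 to 0.07 with parental cells and at -0.27 to 0.11 with TACI short. The block called 7 network genes and 8620 of all genes in TACI long against parental cells. Between the lines it called 8 network genes and 11495 of all genes, with MYC added there (0.10, adjusted p = 0.0289). With 3 libraries a group, small changes against parental cells, such as those of MLX in TACI long and MGA in TACI short, lie near what the spread can resolve.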
